A study of Mus musculus with 6 samples.

Results

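Perilipins, the fusion protein Cidec, the coat proteins of caveolae and the fatty acid carrier Fabp4 were followed in inguinal fat of C57BL/6J mice. The genes chosen were Plin1, Plin2, Plin4, Cidec, Cav1, Cav2, Cavin1 (also known as Ptrf), Ehd2 and Fabp4. Every probe whose annotation gave 1 of these genes, under its current or an older symbol, was taken. This gave 9 probes for 9 genes, 1 probe each, of 13840 genes with a named probe in the series and 33012 probes in all. The tissue came from singly housed male mice that were 8 weeks old when the high saturated fat diet D12331 began, and the diet lasted 4 weeks. RNA of 8 mice with high weight gain (high gainers) made 1 pool, and RNA of 8 mice with low weight gain (low gainers) made another. Strain, sex, diet and depot were shared by both pools. Each pool was run on 3 arrays, numbered 1 to 3 as in the labels.

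A fat cell keeps its triglyceride in a large droplet under a single layer of phospholipid. Perilipins coat that surface and govern the access of lipases to the stored fat, and Cidec passes lipid between touching droplets so that they grow. The plasma membrane of the same cell is densely pitted with caveolae, small flasks built from caveolins and cavins and held at the neck by Ehd2, and endothelial and smooth muscle cells carry caveolae as well. Fabp4 carries fatty acids through the cytoplasm and is among the most abundant proteins of adipocytes.

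Values are chemiluminescence signal intensities on a linear scale, made comparable between arrays by quantile normalization. An array held a value for 18018 to 20605 probes in high gainers and for 18444 to 19790 in low gainers, and 15821 probes were measured on every array and tested with limma on log2 signals. A call needed at least a 1.5-fold difference and an adjusted p under 0.01 (Benjamini-Hochberg, over all tested probes). The 3 arrays of a pool repeat 1 RNA pool, so that n counts arrays and each p measures the spread between arrays, not between mice. The fat label was checked against 12 measured adipocyte markers, all of which had a signal on every array, among them Cebpa, Slc2a4 and Pparg. Signals of B lymphocyte, T lymphocyte, skeletal muscle and epithelial markers were lower in high gainers. Of the tested markers 4 of 4, 3 of 4, 5 of 5 and 3 of 3 were called lower, against 3.99% of all tested probes. A further 1, 1, 1 and 3 markers were blank on some arrays and not tested. In bulk tissue, fewer cells of a type and less RNA per cell cannot be told apart.

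All 9 genes had a value on every array. Plin4 and Ehd2 rose in high gainers. No call was made for the remaining 7, in either direction. Of all tested probes 2.50% were called higher and 3.99% lower, so that 2 of 9 higher and 0 of 9 lower stand against those shares. These were 396 probes higher and 632 lower, and the split was 186 higher and 938 lower after centering on the adipocyte markers. At an unadjusted p under 0.05 the same 2 genes were higher and none was lower, against 17.4% and 13.6% of all probes. The median log2 ratio of high over low gainers was 0.21 over the 9 genes and 0.03 over all tested probes, and the ratios ran between -0.30 for Cidec and 0.82 for Ehd2. The median was 0.07 without array 1 of low gainers, 0.34 without array 2 of low gainers, and 0.05 when each array was centered on the adipocyte markers. In 3 of 9 genes the arrays of the pools did not overlap, a share close to the 36.6% of all tested probes, with high gainers above in Plin4 and Ehd2 and below in Cidec. With 3 arrays against 3, an exact permutation test of a single gene cannot give a two-sided p below 0.1.

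**Figure D1:**
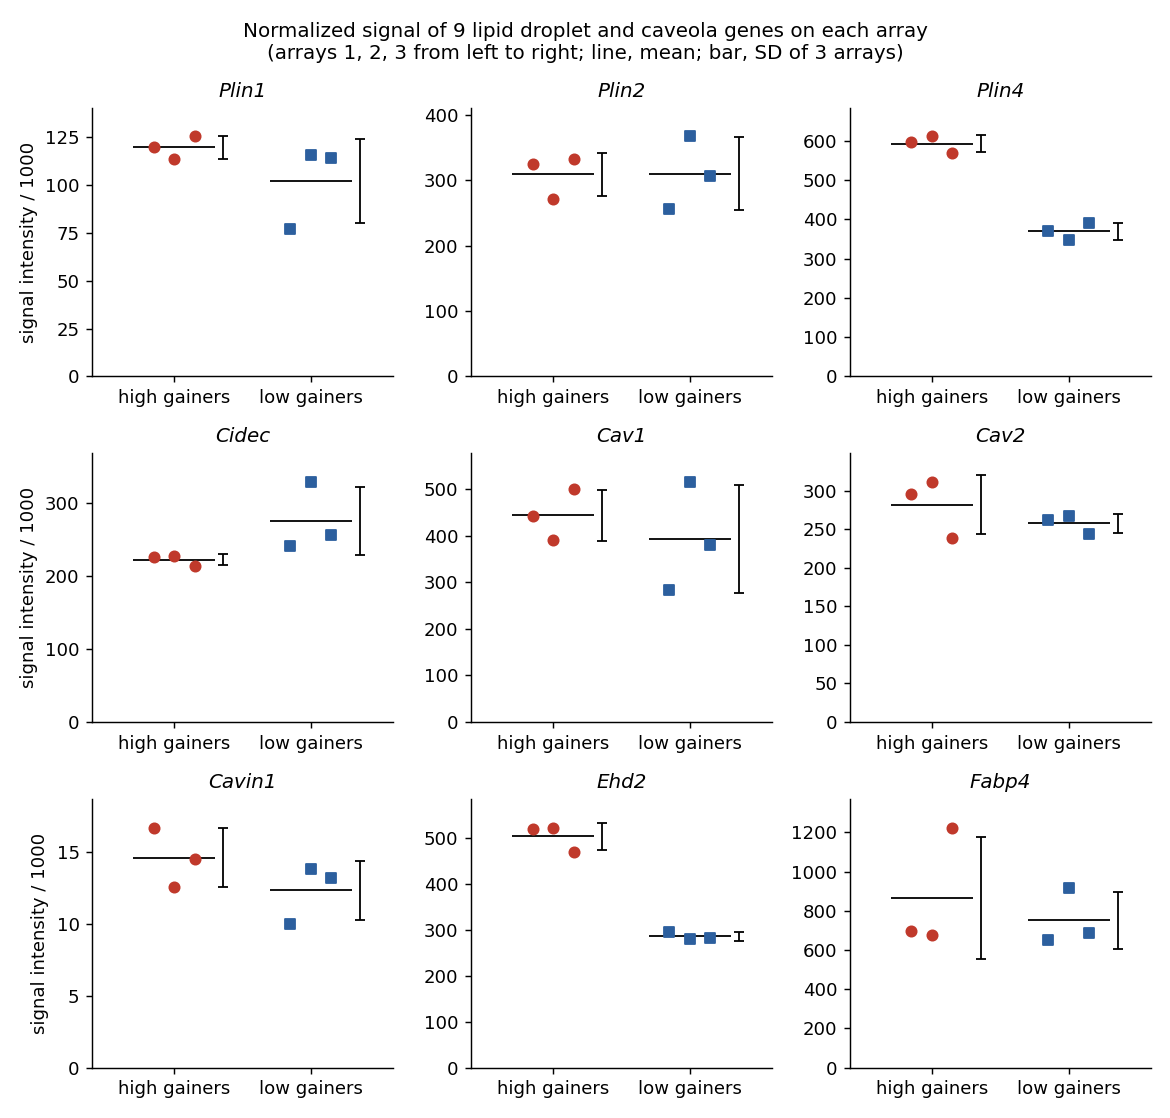
Signal intensity, divided by 1000 (linear axis), of the 9 genes on each array, with high gainers in red (circles) left of low gainers in blue (squares), the mean as a line and the SD of 3 arrays as a bar. The Plin4 arrays lie at 569809 to 610937 in high gainers, all above the 347972 to 389884 of low gainers, and the Ehd2 arrays at 467941 to 521572, all above 278696 to 295651.

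Plin4, formerly S3-12, is a perilipin of white fat that coats small, newly forming droplets. Its signal was 596397, 610937 and 569809 on the arrays of high gainers, against 369452, 347972 and 389884 on those of low gainers. The highest array of low gainers lay well below the lowest of high gainers. The means were 592381 ± 20856 in high gainers and 369103 ± 20958 in low gainers (SD, n = 3 arrays each), 1.61-fold higher in high gainers (95% interval 1.38 to 1.87, limma adjusted p = 0.00305, log2 ratio 0.68 with a standard error of 0.09). The call was lost without array 1 of high gainers (adjusted p = 0.0209), array 2 of high gainers (0.0162), array 2 of low gainers (0.014) or array 3 of low gainers (0.012), while the log2 ratio stayed between 0.64 and 0.72. Centering on the adipocyte markers lowered it to 1.44-fold (adjusted p = 0.013), and the call was lost. The centering used the mean of these markers on each array and shifted the median of all probes by -0.16 on the log2 scale. These markers include Lep, itself called higher (log2 ratio 0.83), and their median log2 ratio was 0.08. The part of Lep in the shift was not tested. By the methods' t-test, which takes the spread of each gene alone, the unadjusted p was 0.000255, under the methods' threshold of 0.01. After adjustment it was 0.0119, and the call was lost.

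Plin1, the classical perilipin of adipocytes, which restrains lipolysis until it is phosphorylated, had signals of 119914, 113853 and 125514 in high gainers, against 77091, 115718 and 114402 in low gainers. A single array, the first of low gainers, lay apart from the other 5. The log2 ratio was 0.25 (95% interval -0.14 to 0.64, adjusted p = 0.365 from limma) and 0.06 without that array. Plin2, also called adipophilin or Adfp, coats droplets in most cell types and had means of 309405 ± 32759 in high gainers and 310093 ± 55514 in low gainers (SD, n = 3 arrays each). Its log2 ratio was 0.01 (95% interval -0.35 to 0.37, adjusted p = 0.983). By the spread between arrays alone, the interval spans 0.783-fold to 1.29-fold, and it sets no bound on the difference between mice. The arrays of the pools interleaved in both genes.

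Whether Plin4 moved apart from its relatives was looked at within arrays, by the log2 signal of Plin4 minus that of the other gene. This difference was 0.68 higher in high gainers for Plin4 over Plin2 (standard error 0.21), with the arrays not overlapping, and 0.43 higher for Plin4 over Plin1 (standard error 0.21), with overlap. The two-sided exact permutation p was 0.1 for the first, the smallest it can be, and 0.2 for the second. These are 2 of 8 such pairs, chosen after the values were seen, and adjustment over the 8 gave 0.16 and 0.229. Plin5, a perilipin of oxidative tissues whose gene lies next to Plin4 on chromosome 17, was at 56000, 61811 and 62452 in high gainers, against 64231, 58021 and 57925 in low gainers (1.00-fold, adjusted p = 0.998 from limma). Plin3, found on droplets of most cells, had a ratio of 1.15 (adjusted p = 0.301). Plin3 and Plin5 were singled out from the wider list below after their values were seen. Of the 5 perilipin genes Plin4 was the called one. With 3 arrays against 3 no pair difference could reach a p under 0.05, whatever its size.

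Cidec, formerly Fsp27, enlarges droplets by lipid transfer and supports the single large droplet of the white adipocyte. Its signal was 226142, 226313 and 212758 in high gainers, against 240040, 328106 and 255914 in low gainers. Every array of high gainers lay below every array of low gainers, as in 16.3% of all tested probes, although the gap between the pools was small beside the spread within low gainers. The log2 ratio was -0.30 (95% interval -0.61 to 0.01, adjusted p = 0.18 from limma), and it was -0.16 without array 2 of low gainers, the brightest. Within arrays, Plin4 over Cidec was 0.98 higher in high gainers on the log2 scale (standard error 0.18, two-sided exact permutation p = 0.1, adjusted 0.16), with no overlap between the pools.

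Ehd2 is a membrane-bending ATPase that gathers at the neck of caveolae and holds them at the cell surface. Its signal was 518002, 521572 and 467941 on the arrays of high gainers, against 295651, 278696 and 281194 on those of low gainers. The pools were separated by a wide gap. The means were 502505 ± 29986 in high gainers and 285180 ± 9153 in low gainers (SD, n = 3 arrays each), 1.76-fold higher in high gainers (95% interval 1.51 to 2.05, limma adjusted p = 0.00138, log2 ratio 0.82 with a standard error of 0.09). Of the 6 fits that each omitted an array, 5 kept the call, and the fit without array 1 of high gainers did not (adjusted p = 0.0116). Centered on the adipocyte markers, it was called as well, at 1.58-fold. By the methods' t-test the unadjusted p was 0.00014, under the methods' threshold of 0.01, and after adjustment Ehd2 was not called (adjusted p = 0.0104).

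The coat proteins that Ehd2 works with gave no call. Cav1, the caveolin without which adipocytes form no caveolae, was at 441384, 390484 and 499076 in high gainers, against 283623, 515120 and 379086 in low gainers. The dimmest and the brightest array both belonged to low gainers. Its log2 ratio was 0.21 (95% interval -0.29 to 0.71, adjusted p = 0.558 from limma), and it was -0.0015 without array 1 of low gainers and 0.43 without array 2 of low gainers. Cav2, the partner of Cav1 in mixed oligomers, lies next to it on chromosome 6 and was at 295152, 311113 and 238167 in high gainers, against 261908, 267098 and 243735 in low gainers (log2 0.12, 95% interval -0.17 to 0.41, adjusted p = 0.567). The array of highest signal among low gainers was array 2 in both caveolin genes. Cavin1, the cavin that stabilizes the caveolar coat, was at 16678, 12582 and 14498 in high gainers, against 9989, 13837 and 13150 in low gainers (log2 0.25, 95% interval -0.13 to 0.62, adjusted p = 0.35), on a probe of middling brightness, with 46.9% of tested probes at or below it. The arrays of the pools overlapped in all 3 genes. Within arrays, Ehd2 over Cav2 was 0.70 higher in high gainers on the log2 scale (standard error 0.08) and Ehd2 over Cavin1 was 0.57 higher (standard error 0.22), both without overlap and each with a two-sided exact permutation p of 0.1 (adjusted 0.16). Ehd2 over Cav1 was 0.60 higher (standard error 0.31), with overlap and an exact permutation p of 0.2 (adjusted 0.229). The ratio of Plin4 to Ehd2 was 0.13 lower in high gainers (log2 difference -0.13, standard error 0.06, exact permutation p = 0.1, adjusted 0.16).

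Fabp4, the adipocyte fatty acid binding protein, also known as aP2, had signals of 695840, 676581 and 1223984 in high gainers, against 651012, 916210 and 685559 in low gainers. Array 3 of high gainers stood far above the other 5, and array 2 of low gainers came next. The log2 ratio was 0.16 (95% interval -0.42 to 0.75, adjusted p = 0.706 from limma), and it was -0.11 without array 3 of high gainers. Within high gainers the coefficient of variation was 35.9% for Fabp4, against 3.52% for Plin4 and 5.97% for Ehd2. All 6 Fabp4 values lay among the 437 highest of each array, which were the same 437 values on every array after the authors' quantile normalization, so that its signal reflects rank among the brightest probes. The Plin4 values of high gainers also lay above the lowest of these, 562486, and those of low gainers lay below it. Plin4 over Fabp4 was 0.52 higher in high gainers on the log2 scale (standard error 0.36, two-sided exact permutation p = 0.3, also after adjustment).

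**Figure D2:**
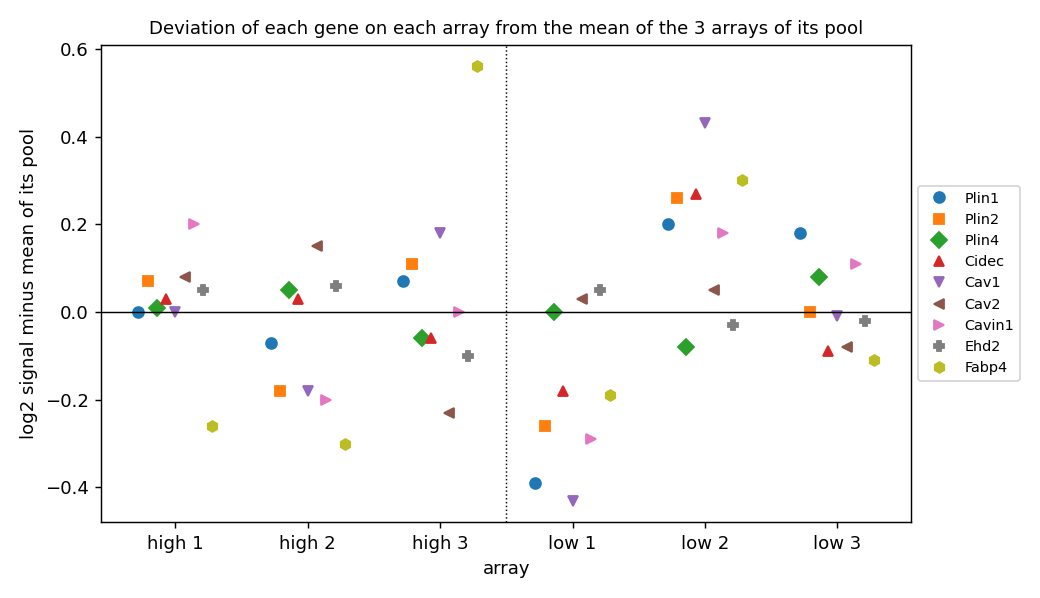
Log2 signal of each gene on each array minus the mean of the 3 arrays of its pool, with the arrays of high gainers left of those of low gainers and 1 symbol per gene. Array 1 of low gainers held the lowest value of its pool in 6 of 9 genes and array 2 of low gainers the highest in 7 of 9, and Fabp4 on array 3 of high gainers lies at 0.56.

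Several of these genes were low on 1 array of low gainers and high on another, as the plot of deviations within pools shows. On array 1 of low gainers the median deviation of the 9 genes from their pool mean was -0.19 on the log2 scale, and on array 2 it was 0.20, while the medians over all tested probes were 0.02 and -0.01. Cav1 moved most on both, by -0.43 and 0.43. The deviations on these arrays were small for Plin4 (0.00 and -0.08), Ehd2 (0.05 and -0.03) and Cav2 (0.03 and 0.05). In high gainers the medians were 0.03, -0.07 and 0.00. The coefficient of variation among the arrays of low gainers was 29.6% for Cav1, 21.4% for Plin1, 5.68% for Plin4 and 3.21% for Ehd2. Without array 1 of low gainers the log2 ratio of high over low gainers was 0.10 for Cavin1, -0.12 for Plin2, 0.07 for Fabp4 and -0.39 for Cidec. Without array 2 of low gainers it was 0.34 for Cavin1, 0.14 for Plin2, 0.32 for Fabp4 and 0.35 for Plin1. None of these genes was called in either fit.

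The 250 bases before the transcription start of the genes that rose, Plin4 and Ehd2, are shown because both were higher on every array of high gainers. They were read from the RefSeq promoter table of GRCm38.p6, which held 11 promoters of 8 of the 9 genes. The window of Plin4 is chr17:56109783-56110032 on the minus strand, and the outermost annotated start of the gene lies 166 bases upstream of the start used, inside this window. The window of Ehd2 is chr7:15967536-15967785 on the minus strand and ends at the outermost start. Both are written 5′ to 3′ on the strand of the gene, and capitals mark every match on either strand to the TATA box (letters TATAA), the GC box (letters GGGCGG) or the CCAAT box (those letters).
Plin4: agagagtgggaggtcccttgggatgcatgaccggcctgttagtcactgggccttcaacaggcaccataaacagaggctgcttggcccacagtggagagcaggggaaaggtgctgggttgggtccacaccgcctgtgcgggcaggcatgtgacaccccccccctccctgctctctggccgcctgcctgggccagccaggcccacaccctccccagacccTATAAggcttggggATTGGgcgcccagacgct
Ehd2: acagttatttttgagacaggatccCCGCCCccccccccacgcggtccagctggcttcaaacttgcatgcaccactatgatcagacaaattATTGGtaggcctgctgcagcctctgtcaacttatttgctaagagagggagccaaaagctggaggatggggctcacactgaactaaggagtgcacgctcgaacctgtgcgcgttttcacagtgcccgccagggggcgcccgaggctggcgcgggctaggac
The Plin4 window held TATAA from 32 to 28 bases before the start and CCAAT on the opposite strand at 18 to 14 bases before it. The Ehd2 window held GGGCGG on the opposite strand, 226 to 221 bases before the start, and CCAAT on the opposite strand, 160 to 156 bases before it, and no match to the TATA box. The TATA box letters were found in 22.8%, those of the GC box in 32.7% and CCAAT in 33.8% of the 32851 windows of this length in the table. AGGTCA, bound by 1 arm of nuclear receptor pairs such as that of PPARγ, was also searched on both strands and was in neither window. It was in 1 of the 11 windows, that of Plin2, and in 14% of all. These 11 windows cover 8 genes, and Fabp4 had none. CCAAT was the motif shared by the Plin4 and Ehd2 windows, and those of Plin2, Cav2 and Cavin1 held it too. A match is a match of letters and no measured site.

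Around the perilipins and Cidec, a wider list of 24 genes of lipid droplets and fatty acid handling was examined, of which 18 were tested. Hilpda, a droplet protein induced by hypoxia that inhibits the lipase Pnpla2, rose in high gainers, and Fabp3, the fatty acid binding protein of heart, muscle and brown fat, fell. Thus 1 of 18 was called higher and 1 of 18 lower, against 2.50% and 3.99% of all tested probes. The other 16 were not called, and the median log2 ratio of the list was 0.00, with 10 of 18 genes above 0. Hilpda was at 52755, 49866 and 50552 in high gainers, against 22082, 17567 and 20855 in low gainers, 2.54-fold higher (limma adjusted p = 0.000409, log2 ratio 1.35 with a standard error of 0.11). Fabp3 was at 5514, 6769 and 7075 in high gainers, against 19855, 25433 and 20817 in low gainers, 3.41-fold lower (limma adjusted p = 0.000371, log2 ratio -1.77 with a standard error of 0.14). The arrays of the pools did not overlap in either gene. Over the list, high gainers lay wholly above in 2 of 18 genes and wholly below in 3 of 18. The shares over all tested probes were 20.3% and 16.3%. Beside Fabp3, the summed signal of 5 measured skeletal muscle markers was 856161 to 943315 in high gainers and 1637965 to 1824039 in low gainers. That of 6 brown or beige adipocyte markers was 883608 to 930643 in high gainers and 1142901 to 1164479 in low gainers, most of it from the bright Cox8b probe (1.22-fold lower, limma adjusted p = 0.0637). Ucp1, the uncoupling protein that defines these cells, was at 6936, 7717 and 7927 in high gainers, against 48242, 60758 and 46376 in low gainers, 6.84-fold lower and the called one of the 6 (limma adjusted p = 0.000174). The median log2 ratio of the 6 was -0.43. At an unadjusted p under 0.05, 4 of 6 were lower, against 13.6% of all tested probes. Among them were Cox7a1 (log2 ratio -0.59, limma adjusted p = 0.0187) and Dio2 (log2 ratio -0.58, adjusted p = 0.043). Prdm16 went the other way, 1 of 6 that was higher at this threshold (log2 ratio 0.44, limma adjusted p = 0.109). Ppargc1a had a log2 ratio of -0.06. Cidea, the defining relative of Cidec in brown fat, was blank on 1 array of high gainers and between 1067 and 1722 on the other 5. The part of these cells in the Fabp3 result was not tested. Next in rank, G0s2, another inhibitor of Pnpla2, had a log2 ratio of 0.25 (adjusted p = 0.188), and Aup1, a droplet protein linked to protein degradation, one of -0.33 (adjusted p = 0.0782). Pnpla2, the lipase that starts lipolysis, and Abhd5, its activator, which Plin1 holds back, were named after their values were seen and had log2 ratios of 0.00 and -0.03.

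**Figure D3:**
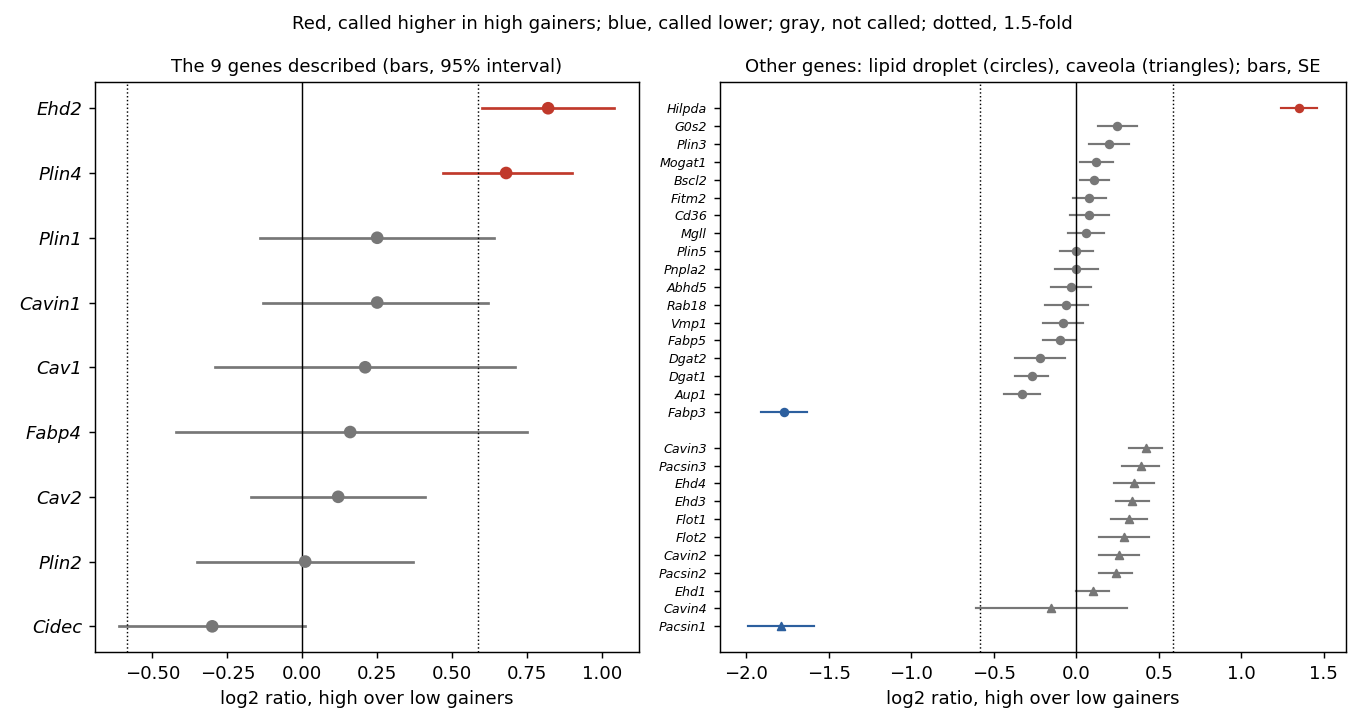
Log2 ratio of high over low gainers (linear axis) for the 9 genes with 95% intervals (left panel) and for 18 other lipid droplet and 11 other caveola genes with standard errors (right panel), red where called higher, blue where called lower and gray where not called, with dotted lines at 1.5-fold. Ehd2 (0.82), Plin4 (0.68) and Hilpda (1.35) are red, Fabp3 (-1.77) and Pacsin1 (-1.79) are blue, and 9 of 11 other caveola genes lie above 0.

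Around the caveolins, Cavin1 and Ehd2, 11 of 14 other genes of caveolae and their surroundings were tested. None was called higher, although 5 of 11 were higher at an unadjusted p under 0.05, against 17.4% of all tested probes, and in 6 of 11 every array of high gainers lay above every array of low gainers, against 20.3% of all. The median log2 ratio of this list was 0.29, against 0.03 over all tested probes, with 9 of 11 genes above 0. Cavin3, a cavin that joins the coat through Cavin1, was at 775470, 716143 and 703909 in high gainers, against 530891, 525883 and 579041 in low gainers (limma adjusted p = 0.0232, log2 ratio 0.42 with a standard error of 0.10). Pacsin3, a membrane-curving protein, followed with a log2 ratio of 0.39 (adjusted p = 0.0553). The relatives of Ehd2 were named after their values were seen. Ehd4 and Ehd3 had log2 ratios of 0.35 and 0.34 (adjusted p = 0.0806 and 0.0648), and Ehd1 had one of 0.10 (adjusted p = 0.562). At the other end, Pacsin1, the neuronal relative of Pacsin3, was at 2073, 1467 and 2142 in high gainers, against 8143, 6044 and 5471 in low gainers, 3.46-fold lower (limma adjusted p = 0.0012, log2 ratio -1.79 with a standard error of 0.20), on a dim probe. Pacsin1 was the 1 of 11 called lower, against 3.99% of all tested probes. The muscle cavin Cavin4 had a log2 ratio of -0.15 (adjusted p = 0.861).

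Markers of other cells that carry caveolae lay somewhat higher in high gainers. The summed signal of 7 measured endothelial markers was 446626 to 504962 in high gainers and 397153 to 418642 in low gainers, with a median log2 ratio of 0.23 and none of 7 called, and Vwf was blank on 4 of 6 arrays. That of 7 smooth muscle and pericyte markers was 271193 to 294059 in high gainers and 205864 to 214079 in low gainers, with a median of 0.48 and none of 7 called. At an unadjusted p under 0.05, 3 of 7 endothelial and 5 of 7 smooth muscle and pericyte markers were higher. So were 3 of 6 stromal fibroblast, 3 of 12 adipocyte and 0 of 4 macrophage markers. The share over all tested probes was 17.4%. The sum over 12 adipocyte markers was 9781787 to 10303873 in high gainers and 9448049 to 9855174 in low gainers, with a median of 0.08 and Lep as the called gene. Macrophage markers, 4 measured, had a median of 0.12 and none was called, while 1 of 6 stromal fibroblast markers was called higher and their median was 0.18. The part of these cells in the levels of Ehd2, Plin4 and the other caveola genes was not tested.

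Among 8595 named genes, the patterns most like that of Plin4 over the 6 arrays were sought by the Euclidean distance of log2 signals after each gene's mean was subtracted. The nearest genes outside the 9 were Osr1 (distance 0.074, 1.58-fold higher in high gainers), Grb14 (0.11, 1.55-fold) and Bcar3 (0.11, 1.54-fold). Ehd2 lay at a distance of 0.21 and ranked 50 among them, ahead of the other 7 genes, which lay between 0.74 for Plin1 and Cavin1 and 1.3 for Cidec. The distance is a description over 6 arrays of 2 pools.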

How the data were processed

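Inguinal fat RNA of 2 pools of 8 mice was measured on 3 arrays each. The authors labeled cRNA, hybridized it to Applied Biosystems mouse genome arrays and deposited quantile normalized signal intensities on a linear scale, blank where an array has no value. Their methods filter on signal to noise and a quality flag. The origin of each blank cell is not stated in the sources used. The number of arrays limits the precision between arrays, and a single pool per group gives no measure of the spread between mice.

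The 15821 probes with 6 values were log2 transformed and compared with limma 3.58.1 (lmFit, eBayes) in R 4.3.3, with Benjamini-Hochberg adjustment over all of them. A call asked for an adjusted p under 0.01 and a fold of at least 1.5. The methods' t-test (their ANOVA for 2 groups) was an alternative, read with and without adjustment. Of the probes, 14411 had 1 symbol in the platform annotation, 247 several and 18354 none, and 14402 symbols were updated by gene identifier through RefSeq genes of GRCm38.p6. A gene with several probes was represented by its brightest. Coordinates are those of the RefSeq promoter table, and probe positions are not used here.

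All 9 genes are reported. Of the wider lists, called genes and those of the 2 highest and 2 lowest ratios are named, and others where so stated. The genes and lists were chosen with earlier results of these data known. No pairing was used, because same-numbered arrays are technical repeats of 2 different pools and nothing states that a number marks a shared run. Deviations from the pool means correlated between same-numbered arrays at r = 0.038, -0.11 and 0.27. As alternatives, the fit was run with another round of quantile normalization, centering on all probes or on 12 adipocyte markers, removal of the dimmest 33.3% of probes, an offset of 1484, a trended robust variance, other fold thresholds, the methods' t-test, the array number as a block, probes with at least 2 values in each pool and leaving out each array.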

Additional observations from a re-analysis of the deposited data

How the results depend on the processing

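The 9 genes gave 2 calls higher in high gainers and 0 lower in the main setting. The number higher was 1 after centering on the adipocyte markers, which shifted the median of all probes by -0.16 on the log2 scale, 1 with the array number as a replicate block (Plin4, adjusted p = 0.0167; Ehd2 stayed called at 0.00823), 0 at a 2-fold threshold and 0 by the methods' t-test after adjustment (adjusted p = 0.0119 for Plin4 and 0.0104 for Ehd2). It ranged between 0 and 2 with 1 array left out. Over all probes, 396 were higher and 632 lower. The number higher was 186 after centering on the adipocyte markers, 173 with the block, 98 at 2-fold, 46 by the adjusted methods' t-test and 105 to 319 with 1 array left out. The number lower was 938 after the same centering, 446 with the block, 402 at 2-fold, 111 by the adjusted methods' t-test and 368 to 493 with 1 array left out. Of the other lipid droplet and caveola genes, 1 higher and 2 lower became 0 and 0 by the adjusted methods' t-test, and 1 was lower without the dim probes, where fewer were tested. The ratios of 4 uncalled genes changed sign. Plin2 was at -0.15 and Cav2 at -0.04 after centering on the adipocyte markers, and with 1 array left out Plin2 ranged between -0.12 and 0.14, Fabp4 between -0.11 and 0.32 and Cav1 between -0.0015 and 0.43. The block changed no other call among the 9 genes. Where no value shows it, the cause was not tested.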
